A study of Mus musculus with 6 samples.

Results

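Genes of calcium-permeable channels and their subunits were compared between female and male libraries of cultured mouse cells, which carry the label aortic endothelial. The members were the protein-coding genes whose symbols belong to the voltage-gated calcium channel subunits (Cacna1, Cacna2d, Cacnb, Cacng), the transient receptor potential channels (Trpc, Trpm, Trpv, Trpa1), Piezo1 and Piezo2, the store-operated channel genes (Orai, Stim) and the store release channels (Itpr, Ryr). This gave 61 genes of the 54532 in the table. All 6 libraries came from wild-type cells without treatment, grown in F-12 with serum, heparin and endothelial growth factors, with 3 libraries labelled female and 3 labelled male. Whether replicate libraries stem from different mice or dishes is not stated in the labels, and the p-values cover only how these samples vary, a spread that may be technical.

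Calcium enters cells through pores in the plasma membrane and is released from the endoplasmic reticulum. Voltage-gated channels open on depolarisation, and a pore subunit (alpha1) is joined by alpha2delta and beta subunits that govern its trafficking and gating. Transient receptor potential (TRP) channels respond to lipids, temperature, osmotic stress and receptor signals. Piezo channels open under membrane tension, and in endothelium Piezo1 is known as a sensor of blood flow. STIM proteins sense the calcium of the store and open ORAI pores when it runs low, while inositol trisphosphate (IP3) receptors and ryanodine receptors let calcium out of the store.

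The libraries held 17410996 to 22993574 counts, and levels are given as CPM, the counts of a gene per 1000000 counts of the TMM-scaled library total. Where a library has 0 counts of a gene, a level of up to 0.128 to 0.171 CPM, depending on the library, is allowed, taking 3 counts as the floor and for counting error only. The endothelial label went against its markers: 11 of 12 endothelial markers stayed under 1 CPM throughout, among them Cdh5, Tie1, Cldn5 and Robo4 with 0 counts in all 6 libraries. The 12 summed to 2.90 to 4.27 CPM in the female libraries and 4.26 to 6.37 CPM in the male libraries, whereas 8 fibroblast markers summed to 11801 to 12668 and 6513 to 7116 CPM. The cells are therefore called cultures below. Of the cell types known for voltage-gated channels, 8 smooth muscle markers summed to 118 to 121 CPM in the female libraries and 142 to 176 CPM in the male libraries, most of it Smtn (means of 112 and 129 CPM, not called). The other 7 summed to 6.69 to 9.40 and 21.1 to 32.5 CPM, with Acta2 at 3.23 and 20.3 CPM (called lower in female) and Myh11 under 1 CPM throughout. Lmod1 was at 3.64 and 3.41 CPM and Tagln at 0.299 and 0.845 CPM, neither called. Des, not tested, went the other way, with 56 counts in female and 4 in male libraries. In the same order 12 cardiac and skeletal muscle markers summed to 1.01 to 2.43 and 1.77 to 2.33 CPM, and 10 neural and glial markers to 27.3 to 31.1 and 27.5 to 42.8 CPM, with Rbfox3 at 0 in all 6 libraries. Macrophage and leukocyte markers (9 genes) summed to 29.6 to 38.6 and 12.9 to 19.2 CPM, with Ptprc at 0 in all 6. The part of these cell types in the differences below was not tested. Male replicate 3 stood apart: its correlation of log2 CPM with the other male libraries was 0.966 and 0.973, against 0.983 to 0.988 for every other pair within a sex. Long genes were low in it. Among genes of 6619 bases or more its log2 level differed from the other male libraries by a median of -0.34, and among genes of up to 2567 bases by 0.35. Channel genes are long by the deposited gene length, with a median of 8977 bases for the tested members against 4003 for all tested genes. The median member differed by -0.20 in male replicate 3.

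Sequences before the transcription start are shown for 5 of the 6 members whose level differed between the sexes and whose RefSeq start lay within 100 bases of the deposited gene start. The remaining gene, Trpm3, held a CCAAT box and no GC box. They were taken from RefSeq (GRCm38.p6), read 5′ to 3′ on the gene's strand, and cover the 250 bases before the start. Capitals mark matches on either strand, which can overlap each other, to a GC box, a CCAAT box or a TATA box. The GC box was searched as GGGCGG. The TATA box was searched as TATAAA and the CCAAT box by the letters of its name. Piezo1 (chr8:122551330-122551579, minus strand) was higher in female libraries. Trpc1 (chr9:95750349-95750598, minus), Trpv4 (chr5:114658422-114658671, minus), Cacna1b (chr2:24763153-24763402, minus) and Cacna2d1 (chr5:15934441-15934690, plus) were lower.
Piezo1: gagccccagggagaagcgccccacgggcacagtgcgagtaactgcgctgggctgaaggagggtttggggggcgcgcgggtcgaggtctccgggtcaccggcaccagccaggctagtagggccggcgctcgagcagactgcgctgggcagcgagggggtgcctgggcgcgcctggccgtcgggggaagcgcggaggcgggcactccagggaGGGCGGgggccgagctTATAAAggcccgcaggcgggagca
Trpc1: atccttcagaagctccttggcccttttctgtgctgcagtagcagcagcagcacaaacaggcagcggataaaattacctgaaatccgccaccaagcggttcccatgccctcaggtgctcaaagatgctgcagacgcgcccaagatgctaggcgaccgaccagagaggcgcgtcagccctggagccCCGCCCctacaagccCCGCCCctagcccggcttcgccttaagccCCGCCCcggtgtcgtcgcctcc
Trpv4: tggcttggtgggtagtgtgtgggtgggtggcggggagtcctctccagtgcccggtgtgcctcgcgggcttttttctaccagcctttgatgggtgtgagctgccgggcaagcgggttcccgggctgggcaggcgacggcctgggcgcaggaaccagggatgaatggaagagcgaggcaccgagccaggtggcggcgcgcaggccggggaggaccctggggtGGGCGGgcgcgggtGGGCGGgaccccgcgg
Cacna1b: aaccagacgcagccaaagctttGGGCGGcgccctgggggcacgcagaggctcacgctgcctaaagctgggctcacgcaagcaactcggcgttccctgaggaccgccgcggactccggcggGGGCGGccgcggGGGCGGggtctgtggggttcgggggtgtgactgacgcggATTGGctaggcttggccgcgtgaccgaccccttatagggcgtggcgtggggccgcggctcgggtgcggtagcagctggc
Cacna2d1: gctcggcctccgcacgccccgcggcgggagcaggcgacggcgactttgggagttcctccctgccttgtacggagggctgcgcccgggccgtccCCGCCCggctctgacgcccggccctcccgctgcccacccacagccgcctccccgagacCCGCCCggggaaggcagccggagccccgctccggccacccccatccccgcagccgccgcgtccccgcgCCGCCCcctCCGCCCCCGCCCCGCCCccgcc

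All 5 windows held a GC box, with 6 matches in Cacna2d1, 3 each in Trpc1 and Cacna1b, 2 in Trpv4 and 1 in Piezo1, which also held the TATA box. Among the 19 tested members with such a start, 12 (63.2%) held a GC box, against 32.7% of the 32851 windows of the RefSeq table, noncoding genes included. Base composition differed alongside, with a median GC content of 66.4% against 52.4%. A CCAAT box was found in 6 of 19 (31.6%, against 33.8% of all windows), an E-box (CACGTG) in 3 (15.8%, against 6.02%) and a TATA box in 1 (5.26%, against 12.4%). No window of the 19 held the AP-1 letters TGANTCA (6.75% of all windows), the cyclic AMP response element TGACGTCA (1.55%) or the interferon-stimulated response element (2.98%). These matches describe letters only.

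Of the 61 members, 50 had a count in at least 1 library and 32 passed the low-count filter and were tested. The test was edgeR's quasi-likelihood test over all 14932 genes that passed, with Benjamini-Hochberg adjustment. Calls are genes with an adjusted p under 0.05. In female libraries 3 members were higher (Piezo1, Cacng7 and Cacng8), which is 9.38% of the 32, where 9.68% of all tested genes were called higher. In the same libraries 10 were lower (Cacna1a, Cacna1b, Cacna1g, Cacna2d1, Cacnb2, Cacng3, Trpc1, Trpm3, Trpv4 and Piezo2), which is 31.2% of the 32, where 8.62% of all tested genes were called lower. The other 19 tested members did not pass. Without female replicate 1 or female replicate 3, 1 member was called higher, and leaving out any library gave 7 to 14 lower. The 3 lower members Cacng3, Trpm3 and Piezo2 reached the filter's level of 0.471 CPM (on unscaled library totals) in all 3 libraries of the male group only. Called with a difference of at least 2-fold were 9 of the 32, beside 10.3% of all tested genes, and called in either direction 13 (40.6%), beside 18.3%. The sexes did not overlap in CPM for 19 of the 32, beside 35.9% of all tested genes. Female lay above in 6 (all genes 19.2%) and below in 13 (all genes 16.7%). The median log2 fold change (female over male, as everywhere below) was -0.24 over the 32 and -0.01 over all tested genes. Fewer cells with a transcript and less transcript per cell cannot be told apart in these bulk samples.

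**Figure D1:**
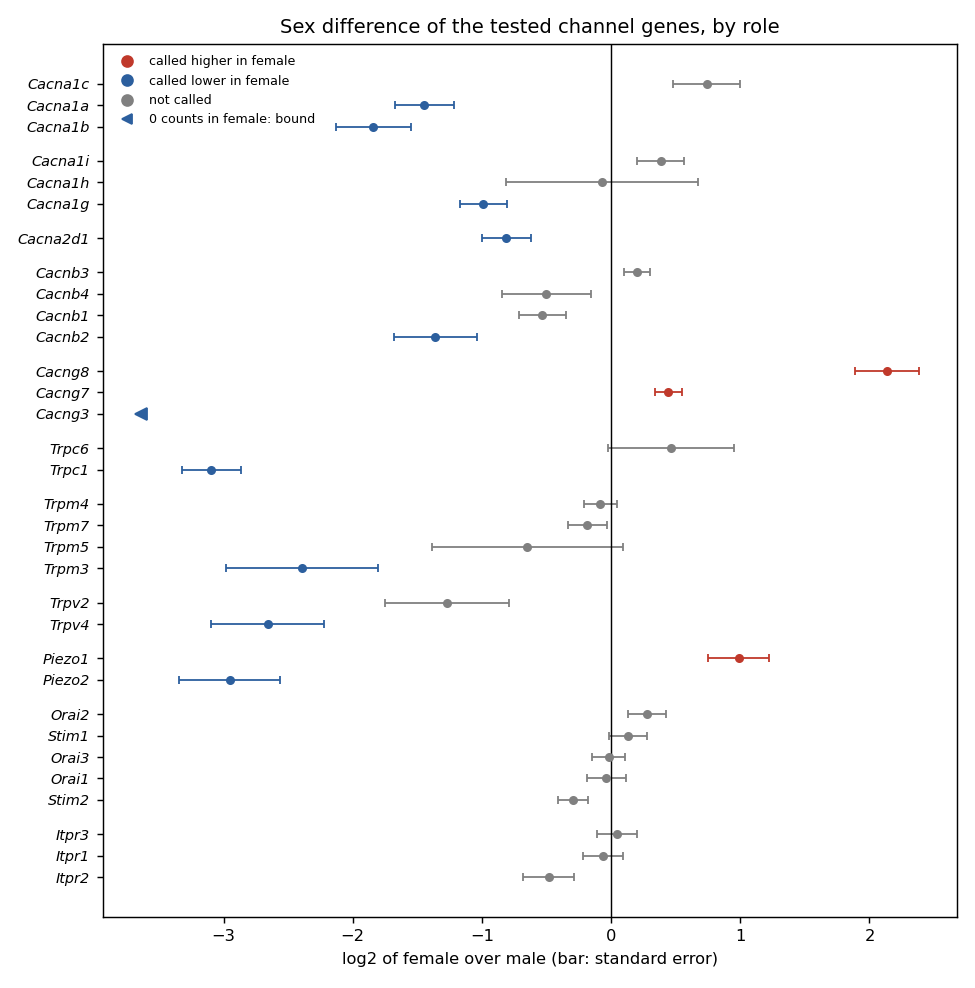
Log2 fold change of female over male for the 32 tested channel genes, with the standard error from edgeR as bars, in blocks by role from voltage-gated pores at the top to store release channels at the bottom. Red marks the 3 genes called higher, blue the 10 called lower and grey the 19 not called, and the triangle for Cacng3 is the bound of at least 12.4-fold lower against 3 counts over the female group.

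Levels between genes were compared per kilobase of the deposited gene length, as CPM per kilobase (RPKM). Piezo1 led, at 57.2 ± 7.88 RPKM in female and 28.9 ± 9.61 in male libraries (SD, n = 3 each, as below). Cacng7 followed, at 39.1 ± 1.75 and 28.7 ± 2.15 RPKM. The next were Cacna2d1 (mean over 6 libraries 19.4 RPKM), Cacnb3 (17.9), Orai3 (14.8), Stim2 (13.2) and Trpm7 (10.6), so that 7 members stood at 10 RPKM or more. Among all tested genes Piezo1 stood at the 92.8th percentile of level per kilobase, Orai1 at the 61.7th and Trpm3 at the 0.69th. Of the 32 tested members 20 were at 1 RPKM or more, and 12 were under it. Among the 20, 3 were called higher in female and 3 lower. Among the 12 scarcer members 7 were called, all of them lower, so most of the 10 lower calls were of scarce genes.

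**Figure D2:**
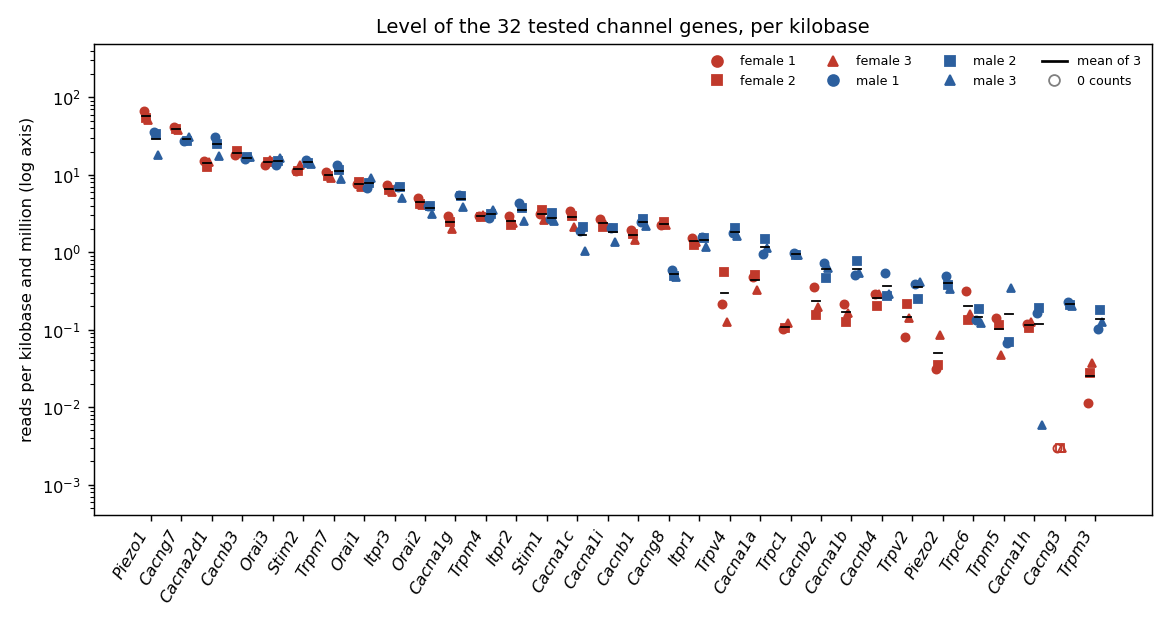
Level of each of the 32 tested channel genes in RPKM on a log axis, ordered by the mean over 6 libraries. Red symbols are female and blue male libraries, with a shape per replicate and a black bar at the mean of 3. Open symbols stand for 0 counts. Piezo1 and Cacng7 stand at the left, with the highest levels, and Cacng3 and Trpm3 at the right.

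Neuronal-type pore genes of the high-voltage class were lower in female cultures. Cacna1a, the P/Q-type pore (chr8:84388440-84640246), stood at 5.43, 5.73 and 3.76 CPM in female replicates 1 to 3 and at 10.8, 16.8 and 12.9 CPM in the male ones. Every female library lay below every male library (log2 fold change -1.45 ± 0.23 (SE), edgeR adjusted p = 0.00168). Cacna1b, the N-type pore (chr2:24603887-24763152), stood at 2.15, 1.24 and 1.62 CPM in the female libraries and 5.03, 7.68 and 5.35 CPM in the male libraries, again without overlap (-1.84 ± 0.29, edgeR adjusted p = 0.00163). Exons of Cacna1a share 435 bases with the antisense transcript Gm16183, and whether the counting used strand is not known from the labels. Among neural markers, Tubb3 was at 12.3 CPM in the female libraries and 27.2 CPM in the male libraries and Snap25 at 13.8 and 3.56 CPM. Their part in the result was not tested.

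The L-type pore Cacna1c, which carries calcium entry in smooth and cardiac muscle, did not pass. Its level was 72.6, 62.2 and 44.5 CPM in the female libraries and 40.1, 44.9 and 22.2 CPM in the male libraries. Female replicate 3 lay just under male replicate 2, so the sexes overlapped (0.74 ± 0.26, edgeR adjusted p = 0.0822). Over the alternatives its adjusted p ran from 9.77e-06 (edgeR with no filter on low counts) to 0.274 (edgeR without female replicate 1). It was called higher by DESeq2 (adjusted p = 0.0315) and limma-voom (0.0142). EdgeR also called it with the gene length offset (adjusted p = 0.00132), the replicate block (0.00161) and without male replicate 3 (0.0358). The other L-type pores were rare: Cacna1d had 39 counts in the 3 female and 14 in the 3 male libraries, Cacna1f had 2 and 0, and Cacna1s had 0 in all 6. The R-type pore Cacna1e also had 0 in all 6, so none of these 4 was tested.

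All 3 T-type pores, which open at low voltage, were tested and 1 was called. Cacna1g (chr11:94408391-94474198) was lower in female, at 30.1, 24.8 and 20.3 CPM against 56.4, 53.7 and 39.1 CPM in the male libraries (-0.99 ± 0.18, edgeR adjusted p = 0.00445). Its highest female library stayed below its lowest male library, which was replicate 3. Cacna1i stood at 26.7, 20.7 and 23.2 CPM in the female libraries and 20.3, 20.3 and 13.5 CPM in the male libraries. The female values lay above the male ones by a narrow margin and did not pass (0.38 ± 0.19, edgeR adjusted p = 0.206), except with the gene length offset (edgeR adjusted p = 0.0389, within a range of 0.0389 to 0.510 over the alternatives). Cacna1h was at 1.14, 1.01 and 1.24 CPM in the female libraries and at 1.60, 1.85 and 0.0569 CPM in the male libraries, and male replicate 3, with 1 count, was far below the others.

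Shares of single pore genes lay apart between the sexes while the sum over the family overlapped. Summed over the 10 pore genes, the level was 9.98, 8.26 and 7.12 RPKM in female and 11.2, 11.9 and 7.95 RPKM in male libraries. Cacna1g made up 29.2 ± 0.938% of that sum in female and 47.6 ± 2.87% in male libraries. Cacna1c made up 33.1 ± 3.21% and 16.0 ± 2.43%, and Cacna1i 28.5 ± 3.98% and 17.6 ± 0.692%. None of these 3 shares overlapped between the sexes, and no test was run on them. Cacna1a and Cacna1b were at 5.16 ± 0.804% and 1.99 ± 0.421% in female and 11.7 ± 2.91% and 5.92 ± 1.21% in male libraries.

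Of the auxiliary subunits, the main alpha2delta gene was lower in female cultures. Cacna2d1, which brings pores to the membrane and binds gabapentin, lies at chr5:15934691-16374511. It stood at 188, 156 and 180 CPM in the female libraries and 388, 315 and 219 CPM in the male libraries. The sexes did not overlap, and male replicate 3 was nearest to the female values (-0.81 ± 0.19, edgeR adjusted p = 0.0147). The call was lost without female replicate 2 (edgeR adjusted p = 0.0787), female replicate 3 (0.0649) or male replicate 2 (0.0592), with a range of 3.19e-08 to 0.0787 over the alternatives. Cacna2d1 made up 99.8 ± 0.171% of the alpha2delta sum in female and 99.7 ± 0.434% in male libraries. Cacna2d3 had 15 counts in female and 30 in male libraries, 23 of the latter in replicate 3, Cacna2d4 had 2 and 3, and Cacna2d2 had 0 and 1, none of them tested.

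The beta subunits, which sit on the cytoplasmic side of the pore, were all tested. Cacnb2 was lower in female, at 4.70, 2.02 and 2.61 CPM against 9.72, 6.18 and 8.25 CPM (-1.36 ± 0.32, edgeR adjusted p = 0.0150). The sexes did not overlap, but the call was lost without female replicate 2 (edgeR adjusted p = 0.0586) or female replicate 3 (0.0775), within a range of 1.93e-06 to 0.0775 over the alternatives. Its exons share 968 bases with transcripts of the opposite strand. Cacnb3, the most abundant beta subunit, was at 73.3, 80.5 and 76.8 CPM in the female libraries and 64.0, 69.0 and 67.9 CPM in the male libraries. Although the groups did not overlap, the difference was small and did not pass (0.20 ± 0.10, edgeR adjusted p = 0.226). Limma-voom called it (adjusted p = 0.0388), within a range of 0.0388 to 0.552 over the alternatives. Cacnb3 made up 89.8 ± 1.80% of the beta sum in female and 83.0 ± 1.78% in male libraries. Cacnb1 did not pass (-0.53 ± 0.18, edgeR adjusted p = 0.0715), although its sexes did not overlap, at 8.72, 7.76 and 6.45 CPM against 11.0, 12.3 and 9.78 CPM. It was called lower by DESeq2 (adjusted p = 0.0441), by limma-voom (0.00137), and by edgeR with the length offset (0.0380) or without male replicate 3 (0.0146), within a range of 0.00137 to 0.239 over the alternatives. Cacnb4 did not pass (-0.50 ± 0.34, edgeR adjusted p = 0.376).

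Neighbouring gamma subunit genes on chromosome 7 were higher in female cultures. Cacng7 and Cacng8 belong to the gamma subunits known as regulators of AMPA receptors in neurons, and they lie 22461 bases apart. Cacng8 (chr7:3390683-3415648) stood at 5.30, 5.73 and 5.25 CPM in the female libraries and 1.40, 1.15 and 1.14 CPM in the male libraries. Its values hardly varied within a sex and were far apart between them (2.14 ± 0.24, edgeR adjusted p = 0.000208). Cacng7 (chr7:3332955-3368221) stood at 100.1, 94.5 and 91.7 CPM in the female libraries and 66.8, 67.5 and 76.2 CPM in the male libraries (0.44 ± 0.11, edgeR adjusted p = 0.0158). That smaller difference was no longer called without female replicate 1 (edgeR adjusted p = 0.0924), 2 (0.0771) or 3 (0.0516) or male replicate 2 (0.0891), within a range of 6.47e-05 to 0.0924 over the alternatives. Cacng6, 8546 bases beyond Cacng8, had 0 counts in all 6 libraries.

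Cacng3, of the same AMPA receptor group, lies elsewhere on chromosome 7 (122670492 to 122769393) and went the other way. It had 13, 13 and 10 counts in male replicates 1 to 3 (0.629, 0.574 and 0.569 CPM) and 0 in every female library. With a floor of 3 counts over the group it was at least 12.4-fold lower in female (edgeR adjusted p = 0.00635). The other gamma genes were at or near 0: Cacng5 had 3 counts in female replicate 1, and Cacng1, Cacng2 and Cacng4 had 0 in all 6 libraries.

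**Figure D3:**
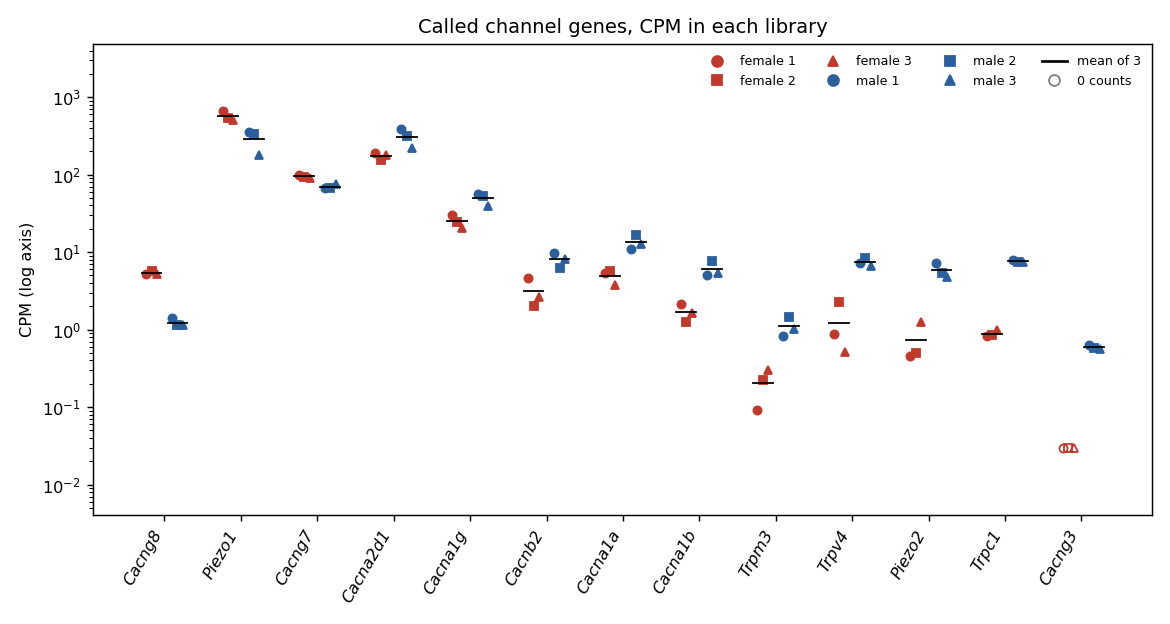
CPM on a log axis of the 13 called channel genes in each library, ordered from the highest to the lowest log2 fold change of female over male. Red symbols are female and blue male libraries, black bars the mean of 3 and open symbols 0 counts. Cacng8, Piezo1 and Cacng7, at the left, have every female library above every male library, and the other 10 the reverse.

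Among canonical TRP (TRPC) channels, which open downstream of phospholipase C, Trpc1 was lower in female cultures. Trpc1 (chr9:95705082-95750375) stood at 0.822, 0.843 and 0.982 CPM in the female libraries and 7.84, 7.46 and 7.51 CPM in the male libraries. Both groups were tight and lay far apart (-3.09 ± 0.23, edgeR adjusted p = 1.29e-05), the smallest p among the members. Trpc6, a diacylglycerol-gated channel, was at 1.60, 0.675 and 0.811 CPM in the female libraries and 0.677, 0.927 and 0.626 CPM in the male libraries. These overlapped and did not pass (0.46 ± 0.49, edgeR adjusted p = 0.589). Trpc4, not tested, had 2 counts in female and 39 in male libraries, a ratio of 20.2 (95% counting interval 5.23 to 173, exact binomial). Trpc5 had 5 counts in female and 3 in male libraries, and Trpc7 had 0 and 2. Trpc2 had 0 in all 6, but its exons share 2874 bases with Xndc1 and the readthrough gene Xntrpc on the same strand. Whether reads shared between genes were counted is not known from the labels. Per kilobase, Trpc1 made up 79.3 ± 0.673% of the TRPC sum in male and 33.5 ± 10.6% in female libraries, where Trpc6 held 55.9 ± 8.47%. The sum itself was 0.480, 0.259 and 0.317 RPKM in female and 1.24, 1.16 and 1.18 RPKM in male libraries.

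**Figure D4:**
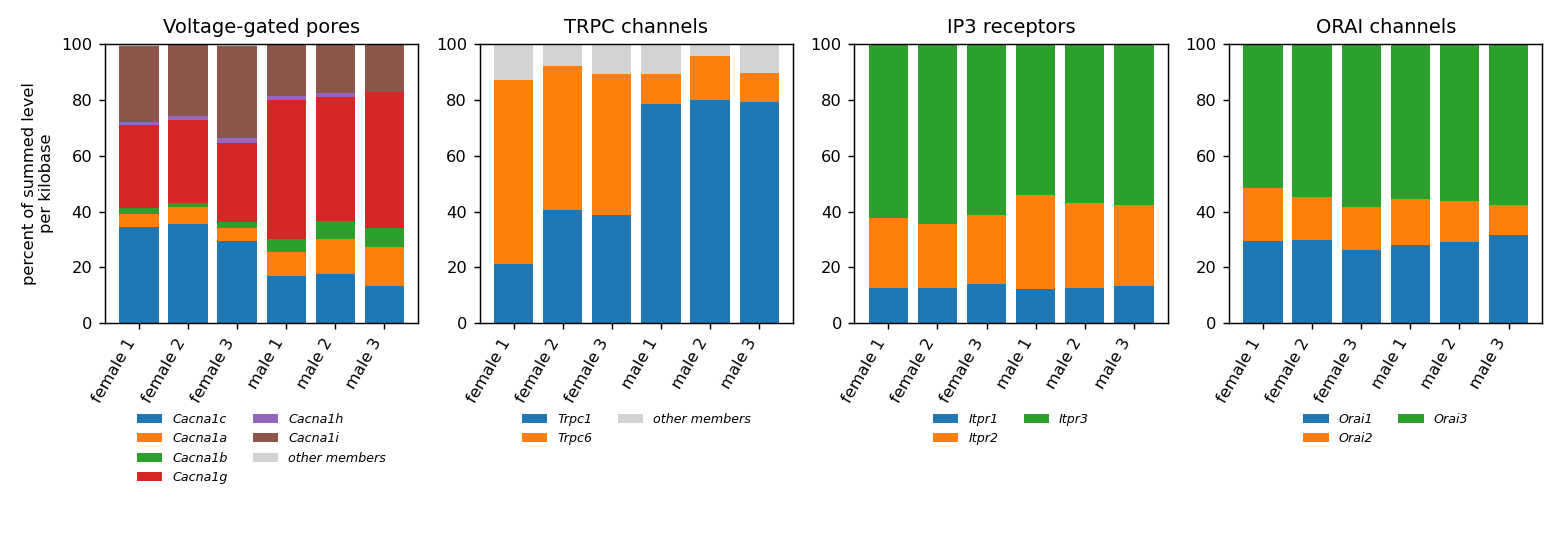
Share of each gene, in percent, of the level per kilobase summed over its family, for each of the 6 libraries, in panels for voltage-gated pores, TRPC channels, IP3 receptors and ORAI channels, with the untested members of a family together in grey. Trpc1 (blue in the TRPC panel) and Cacna1g (red in the pore panel) take more of the male bars, and the ORAI shares overlap between the sexes.

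Of the melastatin-type TRP (TRPM) channels, the abundant genes did not pass and the rare Trpm3 was lower in female. Trpm7, which joins an ion channel permeable to magnesium and calcium to a kinase, stood at 123, 109 and 104 CPM in the female libraries and 150, 131 and 101 CPM in the male libraries. The range of the male libraries enclosed the female ones (-0.19 ± 0.15, edgeR adjusted p = 0.465), and without male replicate 3 the gene was called lower in female (-0.33, edgeR adjusted p = 0.0139, within a range of 0.0139 to 0.848 over the alternatives). Trpm4, a calcium-activated channel that carries sodium, was at 31.7, 30.9 and 33.2 CPM in the female libraries and 29.6, 33.5 and 38.5 CPM in the male libraries. Its values overlapped (-0.08 ± 0.13, edgeR adjusted p = 0.729). Trpm3, a steroid- and heat-sensitive channel, stood at 0.0913, 0.225 and 0.299 CPM in the female libraries and 0.822, 1.46 and 1.02 CPM in the male libraries. It did not overlap (-2.39 ± 0.59, edgeR adjusted p = 0.0186), on 13 counts in female and 68 in male libraries. The call was lost without female replicate 1 (edgeR adjusted p = 0.0840), female replicate 2 (0.0717) or male replicate 2 (0.110), within a range of 0.000856 to 0.110 over the alternatives. Trpm5 did not pass (-0.65 ± 0.74, edgeR adjusted p = 0.622), with male replicate 3 at 2.22 CPM above the other 5 libraries, and its exons share 220 bases with Tssc4. Trpm6 had 5 counts in female and 19 in male libraries, and Trpm1, Trpm2 and Trpm8 had 0 in all 6.

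Vanilloid-type TRP (TRPV) channels were scarce, and Trpv4 was lower in female cultures. Trpv4, an osmotic and warmth sensor through which calcium enters endothelial cells, lies at chr5:114622152-114658421. It stood at 0.868, 2.25 and 0.512 CPM in the female libraries and 7.26, 8.39 and 6.60 CPM in the male libraries. Female replicate 2 was the highest of its group and still well under every male library (-2.66 ± 0.44, edgeR adjusted p = 0.00204). Without that library the log2 fold change was -3.43 (edgeR adjusted p = 0.000286, within a range of 1.76e-16 to 0.0134 over the alternatives). Trpv2 was at 0.365, 0.956 and 0.641 CPM in the female libraries and 1.74, 1.10 and 1.88 CPM in the male libraries, which did not overlap and did not pass (-1.27 ± 0.48, edgeR adjusted p = 0.105). Trpv3 had 19 counts in female and 16 in male libraries, Trpv1, Trpv6 and the irritant receptor Trpa1 had 0 and 4 each, and Trpv5 had 0 in all 6.

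The mechanically gated Piezo genes moved in opposite directions. Piezo1 (chr8:122481698-122551329) stood at 658, 533 and 514 CPM in the female libraries and 353, 330 and 177 CPM in the male libraries. No female library fell to the male range, and male replicate 3 was low by itself (0.99 ± 0.23, edgeR adjusted p = 0.0159). The call was lost without female replicate 1 (edgeR adjusted p = 0.0712) or female replicate 3 (0.0505), and without male replicate 3 the gene stayed called, with a log2 difference of 0.73 (edgeR adjusted p = 8.6e-06). The adjusted p ranged from 4.5e-12 to 0.0712 over the alternatives. Piezo1 exons share 2441 of 9935 bases with Ctu2 on the opposite strand. Ctu2 stood at 14.6, 17.5 and 14.6 CPM in the female libraries and 12.4, 15.5 and 16.6 CPM in the male libraries (edgeR adjusted p = 0.816). The part of this overlap in the Piezo1 difference was not tested. Piezo2, the channel of touch sensation, stood at 0.457, 0.506 and 1.24 CPM in the female libraries and 7.21, 5.43 and 4.83 CPM in the male libraries. All female libraries were lower, replicate 3 the least so (-2.95 ± 0.39, edgeR adjusted p = 0.00057; -3.59 without female replicate 3, edgeR adjusted p = 0.000476, within a range of 1.72e-15 to 0.00381 over the alternatives). Per kilobase, Piezo1 made up 99.9 ± 0.0630% of the Piezo sum in female and 98.6 ± 0.362% in male libraries, so that Piezo2 added little to either.

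Store-operated entry genes were all expressed, and 0 of 5 were called by edgeR (1 at an unadjusted p under 0.05, 0 by DESeq2 and 1, Stim2, by limma-voom). Over all tested genes edgeR called 18.3%, and 5 genes are too few to set 0 calls apart from that share. The pore gene Orai3 stood at 28.9, 31.8 and 33.7 CPM in the female libraries and 28.4, 32.2 and 35.2 CPM in the male libraries. Those ranges nearly coincide (-0.02 ± 0.13, edgeR adjusted p = 0.941). Orai1, the pore of the classical store-operated current, was at 17.6, 18.6 and 16.2 CPM in the female libraries and 15.3, 17.8 and 20.7 CPM in the male libraries (-0.04 ± 0.15, edgeR adjusted p = 0.903). Orai2 was at 30.5, 25.7 and 24.9 CPM in the female libraries and 23.9, 23.9 and 19.2 CPM in the male libraries, with the groups just apart (0.28 ± 0.15, edgeR adjusted p = 0.247). The share of each pore in the ORAI sum overlapped between the sexes for all 3 genes. Orai3 held 54.9 ± 3.50% in female and 56.4 ± 0.961% in male libraries, Orai1 28.4 ± 1.94% and 29.5 ± 1.83%, and Orai2 16.7 ± 2.17% and 14.1 ± 2.79%.

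Of the store sensors, Stim2, the more sensitive to small losses of store calcium, stood at 56.7, 57.3 and 68.2 CPM in the female libraries and 79.4, 73.2 and 70.6 CPM in the male libraries. The groups did not overlap, and the gene did not pass (-0.29 ± 0.12, edgeR adjusted p = 0.122), while without male replicate 3 it was called lower in female (-0.33, edgeR adjusted p = 0.0183, within a range of 0.00549 to 0.352 over the alternatives). Stim1 was at 32.4, 36.0 and 27.5 CPM in the female libraries and 27.7, 33.2 and 26.6 CPM in the male libraries (0.13 ± 0.15, edgeR adjusted p = 0.614). Per kilobase Stim2 exceeded Stim1 in all 6 libraries, holding 79.2 ± 3.72% of the STIM sum in female and 83.8 ± 1.88% in male libraries.

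Release channels of the store came from IP3 receptors, and 0 of the 3 tested were called by edgeR (1 at an unadjusted p under 0.05, 0 by DESeq2 and 1, Itpr2, by limma-voom). Beside the 18.3% called over all tested genes, 3 genes are too few to set 0 calls apart. Itpr3 was the most abundant per kilobase, at 66.3, 56.7 and 53.2 CPM in the female libraries and 62.7, 63.1 and 45.1 CPM in the male libraries (0.04 ± 0.15, edgeR adjusted p = 0.886). Itpr2 stood at 43.6, 33.0 and 35.5 CPM in the female libraries and 64.5, 55.3 and 37.0 CPM in the male libraries. Only male replicate 3 lay within the female range (-0.48 ± 0.20, edgeR adjusted p = 0.137). Itpr2 was called lower by edgeR without male replicate 3 (-0.68, edgeR adjusted p = 0.000125), with no filter on low counts (0.00972), the length offset (0.0168) or the replicate block (0.0485), and by limma-voom (0.00042), within a range of 0.000125 to 0.368 over the alternatives. Itpr1 was at 27.8, 22.7 and 25.2 CPM in the female libraries and 29.2, 28.4 and 21.5 CPM in the male libraries (-0.06 ± 0.15, edgeR adjusted p = 0.828). Itpr2 made up 24.2 ± 1.17% of the IP3 receptor sum in female and 30.9 ± 2.52% in male libraries, without overlap, and Itpr3 62.6 ± 1.75% and 56.2 ± 2.01%. The ryanodine receptors of muscle and brain were near 0, with 3 and 6 counts for Ryr1, 0 and 4 for Ryr2 and 2 and 9 for Ryr3 in female and male libraries.

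The 29 members that were not tested comprised 11 with 0 counts in all 6 libraries and 18 with 1 to 53 counts in total, 12 of the 18 with at most 10. Beyond the ratios given above, no difference was tested for them.

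Other genes of calcium handling were listed by role, outside the channel families. Of 106 such genes 82 were tested, and 7 were higher in female, 13 lower and 62 did not pass, with a median log2 fold change of -0.11. The shares called, 8.54% higher and 15.9% lower, stand beside 9.68% and 8.62% of all tested genes. Without male replicate 3 the counts were 14 higher and 22 lower, and the lower calls numbered 7 without female replicate 1 and 8 without female replicate 3. RGK GTPases, small proteins that inhibit voltage-gated channels by way of beta subunits, were higher in 2 of 3 tested. Gem had 45.3 ± 5.05 CPM in female against 4.60 ± 1.06 in male libraries (3.29 ± 0.19, edgeR adjusted p = 2.89e-06) and Rrad 6.21 ± 2.04 against 1.18 ± 0.370 CPM (2.40 ± 0.35, edgeR adjusted p = 0.000911). Rem1, named outside the rule since it is the remaining gene, was at 12.3 ± 0.887 and 8.17 ± 1.92 CPM and did not pass (edgeR adjusted p = 0.0619).

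Calmodulin-dependent kinases, which decode calcium signals, were lower in 4 of 9 tested. Over all tested genes 8.62% were called lower and 9.68% higher. Camk2b had 0.375 ± 0.124 CPM in female against 5.62 ± 1.12 in male libraries (-3.87 ± 0.34, edgeR adjusted p = 3.91e-05), and Camk1 59.4 ± 5.01 against 108 ± 27.4 CPM (edgeR adjusted p = 0.00629). In the calmodulin, calcineurin and NFAT list 1 of 13 rose and 2 fell. The calcium-dependent transcription factor genes moved apart, Nfatc4 rising by 0.77 ± 0.11 (edgeR adjusted p = 0.000975) and Nfatc1 falling by 0.80 ± 0.14 in log2 (edgeR adjusted p = 0.00231).

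Phospholipases and G proteins that generate IP3 were lower in 3 of 11 tested, where 8.62% of all tested genes were lower and 9.68% higher. Plce1 had 0 counts in every female library and 3.78 ± 1.39 CPM in the male libraries, which with a floor of 3 counts over the group makes it at least 81.5-fold lower in female (edgeR adjusted p = 0.000259). Plcd1 fell by 0.59 ± 0.13 in log2 (edgeR adjusted p = 0.00933, and 0.0515 without female replicate 1). In the store-operated entry list, which held Stac, Stac2 and Stac3 beside regulators of STIM and ORAI, 1 of 10 tested rose and 1 fell. Cracr2a, a cytosolic regulator of ORAI, rose by 2.06 ± 0.44 (edgeR adjusted p = 0.00928), and Stac, which binds L-type channels, fell, with 1.67 ± 0.709 CPM in female against 6.76 ± 0.923 in male libraries (edgeR adjusted p = 0.00201).

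Among force-gated channels outside the Piezo family and Piezo-associated proteins, 2 of 7 rose and 1 fell. Beside them, 9.68% of all tested genes were called higher and 8.62% lower. Kcnk2, a stretch-activated potassium channel, rose from 10.8 ± 2.07 to 26.0 ± 0.925 CPM (1.27 ± 0.16, edgeR adjusted p = 0.00043). Mdfic, an auxiliary subunit of Piezo channels, rose from 86.5 ± 1.08 to 123 ± 2.87 CPM (0.51 ± 0.09, edgeR adjusted p = 0.00412). The sodium-calcium exchanger Slc8a3 had 5.41 ± 0.817 CPM in female against 16.5 ± 1.84 in male libraries (edgeR adjusted p = 0.000167), 1 of 3 exchangers tested, and Slc8b1 did not pass (edgeR adjusted p = 0.150).

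The uniporter complex and the endolysosomal and polycystin channels had 1 call each among 7 tested genes, where 18.3% of all tested genes were called. Over the alternatives the adjusted p ranged from 0.00102 to 0.107 (Mcu), 0.000243 to 0.185 (Pkd2), 0.00097 to 0.175 (Fkbp1a) and 0.000361 to 0.0515 (Plcd1). The uniporter pore Mcu fell by 0.43 ± 0.11 in log2 (edgeR adjusted p = 0.0212), a call lost without female replicate 1 (0.107), 2 (0.0673) or 3 (0.0647) or male replicate 2 (0.0745), and Mcub did not pass (edgeR adjusted p = 0.211). The polycystin channel Pkd2 rose by 0.56 ± 0.17 (edgeR adjusted p = 0.0478, and 0.0554 with RLE scaling, 0.0547 among genes with a mean of at least 50 counts, and 0.112 to 0.185 without any female library or male replicate 2), and Tpcn2 did not pass (edgeR adjusted p = 0.0637). The pumps Atp2a2 (edgeR adjusted p = 0.362), Atp2b1 (0.663) and Atp2b4 (0.108) and the release channel partners Fkbp1a (0.0539, and 0.0143 without male replicate 3) and Fkbp1b (0.165) were not called. In those lists edgeR called 0 of 1, 0 of 2 and 0 of 9 tested genes, and 0, 1 and 3 had an unadjusted p under 0.05 in that order. DESeq2 called 0, 0 and 1 of them, and limma-voom 0, 1 and 2.

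**Figure D5:**
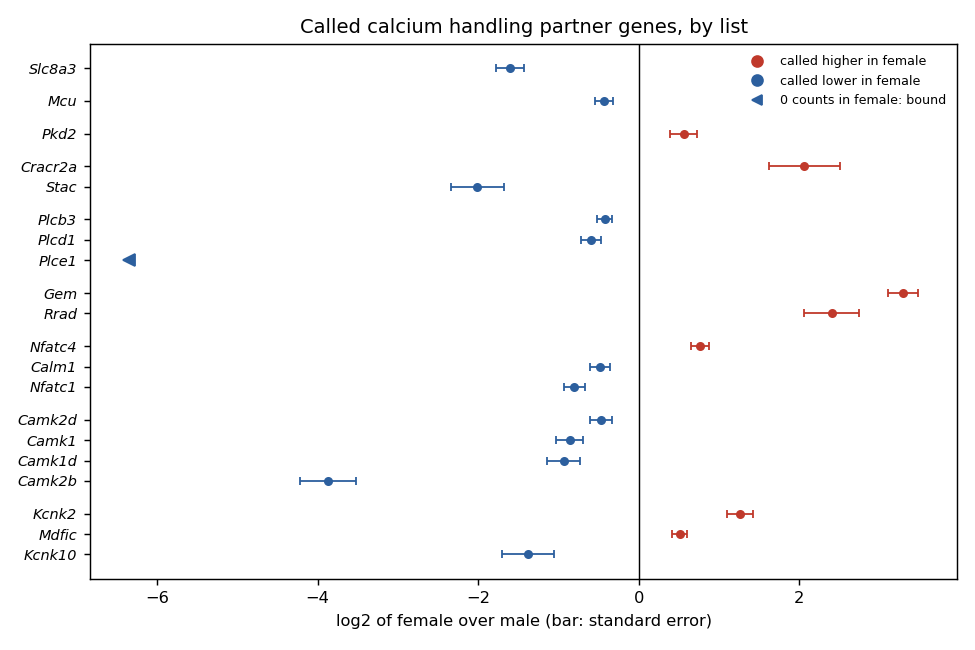
Log2 fold change of female over male for the 20 called calcium handling genes outside the channel families, with the standard error from edgeR, in blocks by list. Red marks the 7 called higher, Gem with the largest at 3.29, and blue the 13 called lower. The triangle for Plce1 is the bound of at least 81.5-fold lower against 3 counts over the female group.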

How the data were processed

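RNA was sequenced from 6 libraries of cultured cells, 3 female and 3 male. Per the submitters' processing notes, the tools include HISAT2 2.0.5 and featureCounts 1.5. The authors deposited whole-number read counts per gene with a gene length and coordinates; the sources used here give neither genome build nor strand setting, and the labels' protocols name both a directional and a non-directional library. Of the table's gene identifiers 99.8% were in GENCODE M21 (GRCm38), 98.3% of them at the same coordinates, which are printed as deposited. The deposited length equalled the merged exons of the gene for 98.0% of the matched identifiers, so it is not the length of 1 transcript.

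From the counts, edgeR 4.0.16 (R 4.3.3) fitted sex over all genes passing its low-count filter (minimum count 10), with TMM scaling and a robust quasi-likelihood F test, and p-values were adjusted by Benjamini-Hochberg over all 14932 genes. The SE of a log2 fold change was its absolute value divided by the square root of F. DESeq2 1.42.0, limma 3.58.1 (voom with quality weights), other scalings and filters, a gene length offset, a replicate block, a threshold of 0.01 and leaving out each library were alternatives. CPM used TMM-scaled library totals, and RPKM the deposited gene length. A group at 0 was bounded by 3 counts over the group.

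The fit was tested on simulated data for this comparison (14615 genes), where it recovered 77% of 2-fold and 99% of 4-fold changes and 19 of 195 calls were false. Changes were simulated only in genes above a minimum mean count, so recovery for scarce members such as Cacng3 and Trpm3 was not tested. The length dependence of male replicate 3 was not simulated. The members and lists were chosen with earlier results of these data known. Called members, the 8 most abundant uncalled members per kilobase and, from each list of calcium handling genes, at most 2 genes with the smallest p were named by rule. Other members, markers, Ctu2 and Rem1 were named beside them. The main fit did not pair libraries by replicate number, and the labels do not say whether these numbers pair the samples. The values of 1 untested member are not reported here.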

Additional observations from a re-analysis of the deposited data

How the results depend on the processing

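Across the alternatives the 13 channel genes called kept their direction, and all 13 stayed called with DESeq2, limma-voom, RLE or upper quartile scaling, the gene length offset, no filter on low counts, the replicate block, and without male replicate 1 or 3. A filter at a mean of 50 counts left out Cacng3 and Trpm3. Against 3 members higher, 1 was called at an adjusted p under 0.01, 5 with the length offset, 5 with limma-voom, and 1 to 4 when 1 library was left out. Against 10 lower, leaving out 1 library gave 7 to 14, the most without male replicate 3. Of the calcium handling genes, 7 higher became 11 with the length offset, 11 without a filter, 15 with limma-voom and 6 to 14 with 1 library left out. The 13 lower became 7 at an adjusted p under 0.01, 26 with limma-voom and 7 to 22 with 1 library left out. Over all genes 1446 were higher and 1287 lower, against 3288 and 3283 with limma-voom and 2508 and 2543 without male replicate 3. The limma-voom quality weights were 0.949, 2.62 and 0.869 for female replicates 1 to 3, and 0.606, 4.06 and 0.188 for the male ones. The causes were not tested.

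Of the tested members 8 changed sign under some alternative, 0 of them called (values in log2). With 1 library left out, Orai3 ranged from -0.099 to 0.054, Orai1 from -0.14 to 0.073, Itpr3 from -0.10 to 0.11, Trpm4 from -0.17 to 0.017 and the pump gene Atp2b1 from -0.047 to 0.24, each changing sign without male replicate 3. With limma-voom Orai1 gave 0.019, Itpr3 -0.11 and Atp2b1 -0.027. Scarcer members moved more: Trpm5 gave 0.43 with limma-voom and 0.55 without male replicate 3, Cacna1h 0.41 without male replicate 2, and Trpc6 -0.03 with limma-voom. Itpr1 gave 0.03 with the length offset.

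Same-numbered female and male libraries deviated together with correlations of 0.21, -0.0041 and 0.15, female replicate 2 correlating best with male replicate 3 (0.10). With the replicate block 4 members were higher and 11 lower.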
